A study of Mus musculus with 8 samples.

Results

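The cells described here are the basal cells of the mouse mammary gland at mid-gestation, the cluster C13 of the deposited cell annotation. Every barcode that the annotation places in C13, that passed its quality filters and that came from a gestation library was taken, which gave 525 cells from gestation mouse 1 and 594 from gestation mouse 2, or 1119 of the 5826 kept gestation cells and of the 25009 kept cells of the series. C13 made up 18.6% and 19.8% of the kept cells of these 2 mice. Another 7 cells of C13 lay in libraries of other stages.

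Single mammary epithelial cells of C57BL/6N mice had been profiled at 4 stages, with 2 mice per stage and 1 droplet library per mouse: nulliparous (NP, 8 weeks old), gestation (G, day 14.5), lactation (L, day 6) and post-involution (PI, day 11 after natural weaning). All cells had been sorted as EpCAM positive and negative for CD31, CD45 and Ter119, which selects epithelium and removes endothelial cells, leukocytes and red cells. The labels name no transgene and no treatment. C13 was set beside C8 and C10 of the same gestation mice, and, together with the other basal clusters C12 and C14, beside the basal cells of NP and L mice.

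Basal cells form the outer layer of mammary ducts and alveoli. They rest on the basement membrane, express keratins 5 and 14 and a smooth muscle type of contractile apparatus, and contract when the pituitary hormone oxytocin reaches them, which moves milk out of the alveoli. During pregnancy the luminal layer inside them grows into alveoli and starts to make milk protein, and basal cells are known to send signals to that layer and to build the matrix around it.

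Of the 4 genes that mark the class, 3 were far higher in C13 than in the luminal clusters, and *Oxtr* was low. Levels are given as CPM, a gene's UMIs (unique molecules) scaled to 1000000 UMIs of the summed cells of a mouse and cluster, with mouse 1 first. *Krt5*, a basal keratin (chromosome 15, 101707070 to 101712898, mm10), stood at 479 and 418 CPM in C13, at 3.93 and 3.32 in C8 and at 4.59 and 4.99 in C10. Its keratin partner *Krt14* (chromosome 11, 100203162 to 100207548) stood at 3232 and 3130 CPM in C13 against 33.5 and 34.3 in C8 and 33.7 and 69.2 in C10. *Acta2*, the smooth muscle actin (chromosome 19, 34241090 to 34255590), stood at 14200 and 10565 CPM in C13, 73.5 and 69.3 in C8 and 88 and 122 in C10. For these 3 genes neither mouse brought the clusters close to each other. *Oxtr*, the oxytocin receptor (chromosome 6, 112473683 to 112489943), stood at 74.8 and 62.7 CPM in C13, 20.4 and 15.9 in C8 and 36 and 24.9 in C10, which is 3.8-fold and 2.29-fold (geometric mean of the ratios within the 2 mice).

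**Figure D1:**
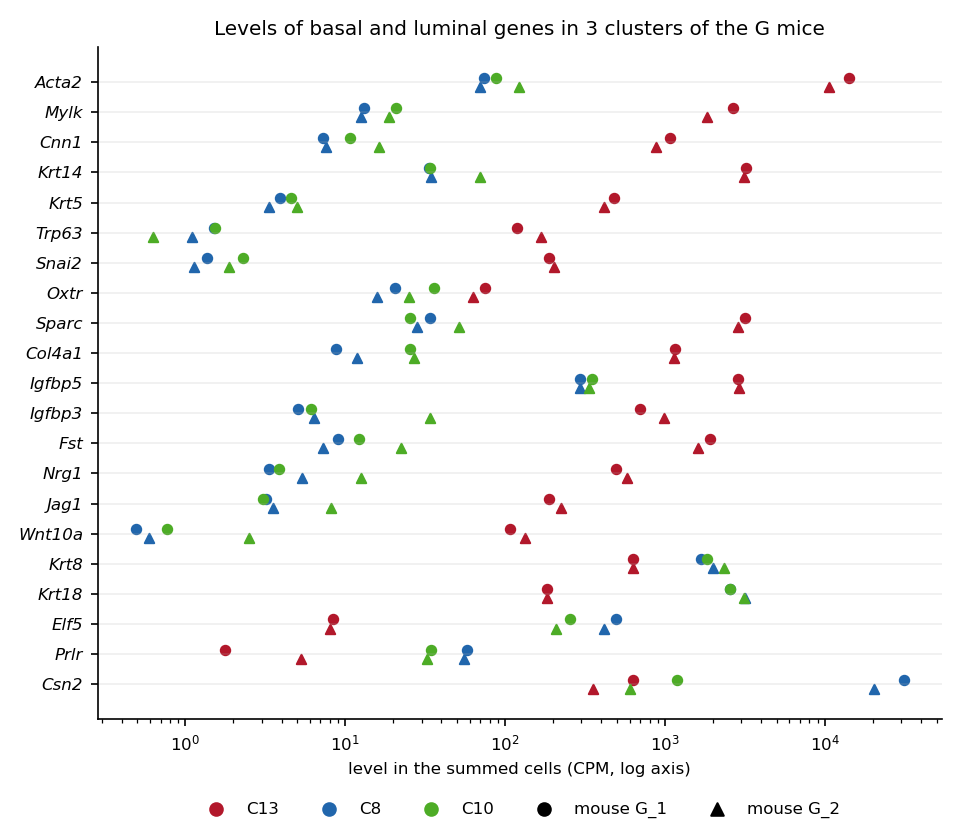
Levels of 21 basal and luminal genes in the summed cells of C13 (red), C8 (blue) and C10 (green), in CPM on a log axis, with a circle for gestation mouse 1 and a triangle for mouse 2. *Acta2* and *Krt14* of C13 lie far above C8 and C10 in both mice, *Oxtr* of C13 lies 3.8-fold above C8, and the luminal genes at the bottom are lowest in C13.

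To compare cells of unequal depth, each cell was thinned at random to 1500 UMIs. *Krt14* and *Acta2* were then both detected in 96.6% and 96.8% of C13 cells, in 0.571% and 0.33% of C8 cells and in 0 and 0.794% of C10 cells. *Oxtr* was detected in 11.1% and 8.75% of thinned C13 cells against 3.38% and 1.82% of thinned C8 cells and 6.74% and 3.97% of thinned C10 cells. Without thinning, *Oxtr* was detected in 37.7% and 31.0% of C13 cells, whose median depth was 6201 and 6060 UMIs (C8 10900 and 8677), and in 29.2% and 24.6% of C10 cells, whose median depth was 9657 and 8870 UMIs. The thinned share of C13 lay above that of both luminal clusters, but its exact binomial 95% intervals (8.5% to 14.1% and 6.61% to 11.3%) overlapped those of C10 (2.51% to 14.1% and 1.3% to 9.02%). Basal cells of the L mice had *Oxtr* in 60.9% and 55.4% of thinned cells.

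The gestation libraries held 34552742 and 32408391 UMIs in kept cells, and the median depth of the 8 libraries ranged from 3770 to 9624 UMIs per kept cell, after 791 cells whose barcode occurred in more than 1 library had been set aside (192 of them in the gestation libraries). C20, which the authors took for doublets of C13 and C8, held 103 and 205 cells with median depths of 12627 and 11121 UMIs. It stood between C13 and C8, with *Acta2* at 4814 and 3874 CPM, and was left out of C13. Within C13, 24 of 5758 genes (0.417%) were at least 2-fold higher in mouse 1 than in mouse 2 and 6 (0.104%) at least 2-fold lower. All 20 genes of a list of dissociation stress and immediate early genes were higher in mouse 1, 6 of them past 2-fold, while 16 of the 20 in C8 and 15 in C10 were higher in mouse 1. In C8 0.24% and 0.0185% of genes were past 2-fold higher and lower in mouse 1, and in C10 0.952% and 0.612%. The part of this stress level in the results below was not tested.

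C13 and C8 are clusters drawn from the same counts, so their differences are a description and carry no test. Both C8 and C10 carried luminal keratins (*Krt8* at 1681 and 1994 CPM in C8 and 1837 and 2333 in C10, against 632 and 629.5 in C13), and C8 also the milk genes. A gene was counted as higher or lower when it differed at least 4-fold in both mice and reached 20 CPM in the higher cluster of both mice. Against C8, 708 of 6231 genes were higher in C13 (11.4%) and 318 lower (5.1%), and against C10 553 of 6157 were higher (8.98%) and 291 lower (4.73%). The median log2 ratio over all these genes was 0.05 against C8 and 0.01 against C10, and scaling by TMM factors moved it by -0.21 and 0.15.

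Contractile genes were high in C13. Of 22 contractile genes measured, 20 reached 20 CPM, and 16 were higher in C13 than in C8 and 16 than in C10, with none lower. The median log2 ratio of the 20 was 6.31 against C8 and 5.54 against C10, beside 0.05 and 0.01 over all genes. *Mylk*, the kinase that switches on smooth muscle myosin, stood at 2656 and 1842 CPM in C13, 13 and 12.6 in C8 and 20.7 and 18.7 in C10. *Myl9*, the myosin light chain it acts on, stood at 1973 and 1364 CPM in C13 and 10.5 and 10.9 in C8, a 153-fold difference. *Actg2*, the enteric smooth muscle actin, stood at 973 and 768 CPM in C13 and 5.22 and 6.06 in C8. The mean log2 ratio of C13 over C8 was 7.42 ± 0.24 (SD, n = 2 mice) for *Acta2*, 7.43 ± 0.34 for *Mylk* and 7.44 ± 0.32 for *Myh11*, the smooth muscle myosin heavy chain. The 6 contractile genes that did not pass against C8 were the regulators *Myocd*, *Srf*, *Mkl1* and *Mkl2* and the structural genes *Des* and *Csrp1*. *Srf*, the transcription factor that binds CArG boxes in smooth muscle genes, stood at 74.3 and 71.4 CPM in C13 and 27 and 25.2 in C8. *Myocd*, its smooth muscle cofactor, stayed at 0.505 and 0.686 CPM in C13. Among 14 genes of smooth muscle ion channels and filament anchors, *Nexn*, a filament anchor, stood at 118 and 88.3 CPM in C13 and 0.605 and 0.82 in C8. *Kcnmb1*, the smooth muscle subunit of a potassium channel, stood at 56.9 and 45.8 CPM in C13 and 0.491 and 0.364 in C8. In all, 6 of the 14 were higher in C13 than in C8 and none lower.

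Since the contractile genes were high together, the 250 bases before the transcription start of contractile genes were searched for the CArG box, the sequence known to bind *Srf*, on both strands (RefSeq, GRCm38.p6; 16 of the 22 genes matched). The windows searched also held the first 50 bases of the transcript. An exact box lay in 3 of the 16 genes (18.8%), *Myl6*, *Myl9* and *Srf*, and in 488 of 27025 genes overall (1.81%). *Srf* is among the contractile genes that did not pass against C8, and *Acta2* holds no exact box. With up to 1 mismatch it lay in 8 of the 16 (50%) and in 23.8% of all genes. The upstream bases of *Acta2*, *Myl9* and *Myl6* are shown to place the boxes, read 5′ to 3′ along the gene. Exact boxes, and for *Acta2* the boxes with 1 mismatch, are in capitals. *Acta2* (chr19:34255374-34255623, minus strand) holds 2 boxes with 1 mismatch each, at -84 and -34 from the start, *Myl9* (chr2:156775214-156775463, plus strand) an exact box at -161 and a box with 1 mismatch, in lower case, at -99, and *Myl6* (chr10:128493010-128493259, minus strand) an exact box at -50. A match describes the letters of the window and not the binding of a factor.
Acta2: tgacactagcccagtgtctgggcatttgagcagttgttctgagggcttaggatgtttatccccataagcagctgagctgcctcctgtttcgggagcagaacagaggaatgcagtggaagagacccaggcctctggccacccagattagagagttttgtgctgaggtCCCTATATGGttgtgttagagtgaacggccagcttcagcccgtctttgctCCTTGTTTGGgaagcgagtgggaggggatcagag
Myl9: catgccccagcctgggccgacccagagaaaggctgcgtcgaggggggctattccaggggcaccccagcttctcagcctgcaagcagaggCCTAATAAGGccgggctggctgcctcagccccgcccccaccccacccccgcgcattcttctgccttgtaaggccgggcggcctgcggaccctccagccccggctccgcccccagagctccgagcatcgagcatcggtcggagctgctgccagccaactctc
Myl6: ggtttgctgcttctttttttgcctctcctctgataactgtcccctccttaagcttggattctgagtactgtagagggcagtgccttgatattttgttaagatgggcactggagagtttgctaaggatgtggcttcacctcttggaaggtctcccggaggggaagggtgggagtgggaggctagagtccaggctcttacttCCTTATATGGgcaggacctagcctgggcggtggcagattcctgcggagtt

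Basement membrane genes were high in C13 as well. Of 20 measured, 18 reached 20 CPM, 16 were higher than in C8 and 14 than in C10, and none was lower in either. Their median log2 ratio was 4.73 against C8 and 3.67 against C10. *Col4a1*, a chain of the type IV collagen network, stood at 1153 and 1136 CPM in C13, 8.73 and 11.9 in C8 and 25.2 and 26.8 in C10. *Nid1*, which links that network to laminin, stood at 85.2 and 106 CPM in C13 and 1.62 and 1.27 in C8. *Lama1*, a laminin chain, stood at 58.4 and 39.6 CPM in C13 and 1.47 and 1.37 in C8. The 4 genes that did not pass against C8 were *Lama5*, *Lamb2*, *Nid2* and *Fn1*. Among 15 integrin and hemidesmosome genes, 7 were higher in C13 than in C8 and 6 than in C10. *Itga1*, a collagen receptor, stood at 44.7 and 26.8 CPM in C13 and 0.265 and 0.137 in C8, and *Itgb1*, the common beta chain, at 801 and 798 CPM in C13 and 127 and 143 in C8. Of 13 adhesion genes, 4 were higher than in C8 (*Cdh3*, P-cadherin; *Dsp*, desmoplakin; *Pkp1*; *Gja1*, connexin 43) and 2 lower (*Pkp2*; *Gjb2*, connexin 26). *Gja1* stood at 600 and 822 CPM in C13 and 20.1 and 29.8 in C8, whereas *Gjb2* stood at 3.03 and 2.75 in C13 and 160.5 and 123 in C8, so the 2 connexins lay on opposite sides.

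Of 6 basal keratins measured, 5 were higher in C13 than in C8 and 5 than in C10. *Krt15* stood at 222 and 295 CPM in C13 and 7.52 and 8.88 in C8, and *Krt17* at 3165 and 3897 in C13 and 24.9 and 31.8 in C8. Of 16 basal transcription factors, 11 reached 20 CPM and 7 were higher than in C8, the same 7 being higher than in C10: *Trp63*, *Snai2*, *Id4*, *Egr2*, *Etv4*, *Etv5* and *Mef2c*. *Trp63*, the p63 factor needed for basal identity, stood at 118 and 167 CPM in C13, 1.51 and 1.09 in C8 and 1.53 and 0.624 in C10. *Mef2c*, a muscle factor, stood at 97.6 and 64.5 CPM in C13 and 0.907 and 0.683 in C8.

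Genes for secreted signals were a further group that was high in C13. Of 27 secreted factors and proteases of basal cells, 16 were higher in C13 than in C8 and 1, *Edn1*, was lower. *Il17b*, a cytokine, stood at 1274 and 1171 CPM in C13 and 5.37 and 8.29 in C8. *Cxcl14*, a chemokine, stood at 1599 and 1951 CPM in C13 and 9.71 and 13.2 in C8. Of 26 Wnt pathway genes, 13 reached 20 CPM, 6 were higher than in C8 (*Wnt6*, *Wnt10a*, *Fzd3*, *Fzd7*, *Lrp6*, *Dkk3*) and *Rspo1* was lower. *Wnt10a*, a Wnt ligand, stood at 107 and 133 CPM in C13, 0.491 and 0.592 in C8 and 0.765 and 2.5 in C10. Within the Notch pathway, ligands and receptors lay on opposite sides against C10, though no receptor was counted as lower against C8. The ligand *Jag1* stood at 189 and 225 CPM in C13 and 3.06 and 8.11 in C10, *Jag2* at 32.4 and 25.9 in C13 and 0.765 and 0 in C10, and *Dll1* at 58.1 and 43 in C13 and 1.53 and 1.87 in C10. The receptor *Notch1* stood at 25.5 and 26.3 CPM in C13 and 119 and 109.8 in C10, and the target *Hes1* at 20.0 and 14.9 in C13 and 152 and 152 in C10. Of 15 Notch genes, 3 were higher in C13 than in C10 (the 3 ligands) and 4 lower (*Notch1*, *Notch3*, *Hes1*, *Nrarp*); against C8, 3 were higher and *Hes1* was lower.

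Several growth factor ligands and binding proteins were also higher in C13 than in C8. In the EGF family, 5 of 14 genes were higher than in C8 (*Tgfa*, *Ereg*, *Nrg1*, *Egfr*, *Errfi1*) and *Erbb3* was lower. *Nrg1*, a ligand of the ErbB3 and ErbB4 receptors, stood at 491 and 574 CPM in C13, 3.33 and 5.33 in C8 and 3.83 and 12.5 in C10. *Erbb3* stood at 3.79 and 3.66 CPM in C13 and 72.8 and 91.5 in C8. The FGF and IGF list had 10 of 20 genes higher than in C8, among them *Igfbp2*, *Igfbp3*, *Igfbp4*, *Igfbp5* and *Igfbp7*, which bind insulin-like growth factors outside the cell. *Igfbp2* stood at 972 and 798 CPM in C13, 4.76 and 5.1 in C8 and 6.12 and 5.62 in C10. In the TGF-beta and BMP list, 5 of 22 were higher (*Tgfbr3*, *Ltbp2*, *Fst*, *Bmp1*, *Bmp7*). *Fst*, follistatin, which binds activin, stood at 1914 and 1611 CPM in C13 and 9.03 and 7.29 in C8. Against C10 the lists were more mixed. In the EGF family 4 genes were higher in C13 and 2 lower. In the FGF and IGF list 8 were higher and 1 lower, and in the TGF-beta and BMP list 3 were higher and 2 lower. Among 18 genes of hormone receptors and related hormones, *Pthlh*, parathyroid hormone-like hormone, was among those higher than in C8, and *Prlr*, the prolactin receptor, was lower at 1.77 and 5.26 CPM against 58 and 55.6. Of 14 oxytocin and calcium signalling genes, 11 reached 20 CPM. Only 2 of the 11 were higher than in C8, the calcium pump *Atp2a2* and the calcium sensor *Stim1*, beside 11.4% of all genes.

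Luminal and secretory genes were the low side of C13. Of 20 luminal genes, 12 were lower than in C8 and 15 than in C10, and of 19 milk fat genes 9 were lower than in C8. *Thrsp*, a regulator of fat synthesis, stood at 7.33 and 2.52 CPM in C13 and 429 and 215 in C8. *Btn1a1*, butyrophilin of the milk fat globule, stood at 1.01 and 0.915 CPM in C13 and 115 and 82.8 in C8. *Aldh1a3*, a luminal progenitor enzyme, stood at 3.03 and 4.8 CPM in C13 and 379 and 467 in C10. All 6 milk protein genes that reached 20 CPM were lower in C13 than in C8.

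The 8 milk protein genes summed to 1779 and 942 CPM in C13, against 96653 and 57393 in C8. That level was not particular to C13. It was 1608 to 1842 CPM in the other clusters of mouse 1 that are not alveolar (C5 and C16 to C19) and 824 to 1325 CPM in those of mouse 2, clusters that included the immune-like C17 and the fibroblast-like C18. *Csn2*, beta-casein, was found in 97.3% and 88.7% of C13 cells and in 98.3% and 84.9% of C17 cells, whose median depths were 6496 and 5562 UMIs. Whether these UMIs came from RNA outside the cells was not tested. The 472 and 534 C13 cells left after the deepest were removed had 1797 and 962 CPM. *Csn3* over *Csn2* was 0.174 and 0.201 in C13 and 0.16 and 0.14 in C8, and between 0.0659 and 0.164 in the other clusters of low milk level, C10 apart at 0.995 and 0.915.

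**Figure D2:**
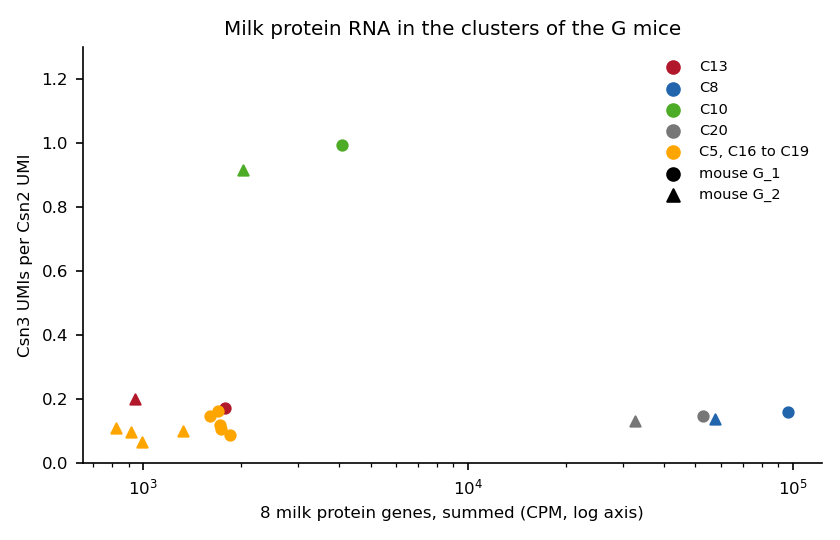
UMIs of *Csn3* per UMI of *Csn2* (vertical axis) against the summed level of 8 milk protein genes in CPM (horizontal log axis) for clusters of the 2 gestation mice with at least 20 cells, a circle for mouse 1 and a triangle for mouse 2. C13 (1779 and 942 CPM) lies beside C5 and C16 to C19, far to the left of C8 at 96653 and 57393.

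Fibroblast, endothelial, pericyte and immune markers were low in C13 beside the clusters that carried them most. Their sums still lay above those of C8. The 10 fibroblast markers summed to 1052 and 885 CPM in C13 and to 50296 and 56159 in the fibroblast-like C18. Of the 10, 6 were higher in C13 than in C8 and 6 than in C10. Most of the sum was *Dcn*, decorin, a matrix proteoglycan, at 687 and 528 CPM in C13, found in 59.2% and 51.0% of thinned C13 cells and 0.83% and 0.55% of thinned C8 cells. Endothelial markers summed to 43.5 and 43.0 CPM, pericyte markers to 65.0 and 67.9 and immune markers to 252 and 291, with *Pecam1* at 5.31 and 7.78 and *Ptprc* at 1.52 and 1.60 CPM. The immune markers summed to 92.6 and 127.7 CPM in C8 and 55.1 and 55.5 in C10. The part of these cells in the results for C13 was not tested.

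Cells of C13 varied among themselves in how much of their RNA was contractile. The contractile list took a median of 4.13% of a cell's UMIs in mouse 1 and 3.33% in mouse 2, with 10th and 90th percentiles of 2.17% and 6.03% in mouse 1. In C8 the median was 0.13% and 0.14%, and in C20 1.35% and 1.2%. Basal keratins took 0.658% and 0.714% of a C13 cell's UMIs. Basement membrane genes took 0.675% of a cell's UMIs in mouse 1, with the 10th and 90th percentiles at 0.47% and 0.924%.

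**Figure D3:**
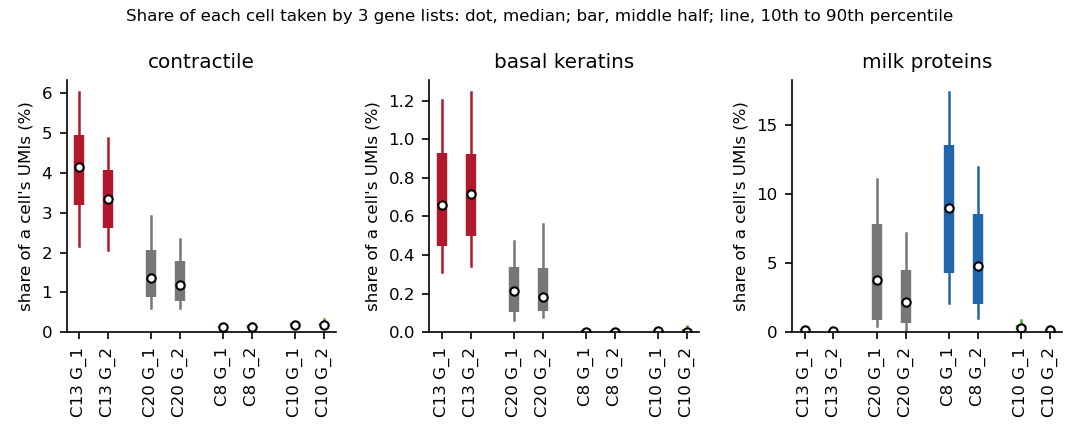
Share of a cell's UMIs (percent) taken by contractile, basal keratin and milk protein genes in C13, C20, C8 and C10 of the 2 gestation mice, with a dot at the median, a bar between the quartiles and a line from the 10th to the 90th percentile. The contractile share of C13 cells centres on 4.13% and 3.33%, with C20 between C13 and C8.

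The genes whose counts varied most between C13 cells, by the variance of Pearson residuals in each mouse over 6329 genes, came from several lists and in part from none. The 15 with the best worst rank over both mice were *Actb*, *Mt1*, *Fos*, *Krt17*, *Fst*, *Acta2*, *Mt2*, *Cyr61*, *Fabp5*, *Fabp4*, *Malat1*, *Thbs1*, *Krt15*, *Mgp* and *Hspa1a*, and 13 of the 15 ranked there again after thinning. Of these, *Krt17* and *Krt15* are in the list of basal keratins, *Acta2* in the contractile list and *Fos* and *Hspa1a* in the stress list. *Fst* is in the TGF-beta and BMP list, and *Cyr61* and *Thbs1* are in the list of secreted factors. The residual variance of *Krt17* was 9.94 and 10.1, where the median gene had 1.05 and 1.05. *Krt5* varied far less, at 1.60 and 1.57. Across the 525 and 594 cells, which share a library and differ in depth, the residuals of *Krt17* and *Krt15* had a correlation of 0.386 and 0.54, those of the metallothioneins *Mt1* and *Mt2* 0.785 and 0.735, and those of *Fos* and *Hspa1a* 0.505 and 0.394. *Fabp4*, a fatty acid binding protein, was in 7.81% and 7.91% of C13 cells, with up to 71 and 57 UMIs in a cell.

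RNA of division genes was found in fewer C13 cells than C8 or C10 cells of the same mice, and in more C13 cells than basal cells of NP and L. A cell was scored when it had at least 2 UMIs of 24 division genes after thinning to 1500 UMIs. That held for 74 of 525 C13 cells in mouse 1 (14.1%, exact binomial 95% interval 11.2 to 17.4) and 64 of 594 in mouse 2 (10.8%, 8.40 to 13.6). It held for 44.2% and 40.0% of C8 cells and 41.6% and 35.7% of C10 cells. Without thinning the C13 shares were 26.5% and 20.9%. Of the 24 division genes none was higher in C13 than in C8 or C10, 7 were lower than in C8 and 3 than in C10, and of 20 DNA replication genes 4 were lower than in C8 and 9 than in C10. Among basal cells it was 0.595% and 0.707% in NP, 0.345% and 0.0966% in L, and 0 of 28 and 0 of 59 cells in PI, whose intervals reach 12.3% and 6.06%. The gestation mice did not overlap with the NP and L mice, but with 2 mice against 2 an exact two-sided permutation test cannot go below p = 0.33. Intervals cover counting error only.

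**Figure D4:**
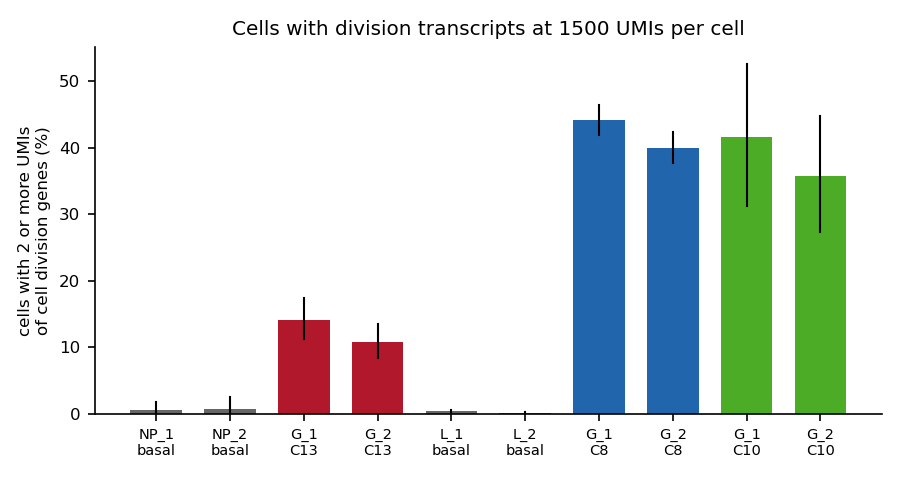
Share of cells (percent, bars from 0) with at least 2 UMIs of 24 division genes after thinning to 1500 UMIs, 1 bar per mouse, with exact 95% binomial intervals as lines. C13 stands at 14.1% and 10.8%, below C8 and C10 and above basal cells of NP and L, all under 1%.

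For the stages, UMIs of the clusters C12, C13 and C14 were summed per mouse (504 and 283 basal cells for NP, 528 and 604 for G, 4639 and 3105 for L) and tested with the quasi-likelihood test of edgeR with Benjamini-Hochberg adjustment over 11654 genes. Different clusters hold the class at each stage, C12 in NP, C13 in G and C14 in L. Log2 differences are coded G minus the other stage, with their standard error. In G, 2603 genes were higher than in NP (22.3%) and 2403 lower (20.6%), and 3058 were higher than in L (26.2%) and 3100 lower (26.6%). At least 2-fold and past the test were 1474 genes higher (12.6%) and 1050 lower (9.01%) than in NP, and 1375 higher (11.8%) and 1571 lower (13.5%) than in L. Both comparisons use the same 2 gestation mice, so the values are set side by side and not compared as independent results. Each library is 1 mouse.

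Luminal, stress and fibroblast RNA also differed between the stages. The 20 luminal genes summed to 7888 and 5155 CPM in the basal cells of NP, 2219 and 2397 in G and 3601 and 3402 in L. The 20 stress genes summed to 7453 and 6776 CPM in NP, 12908 and 8699 in G and 43839 and 36895 in L, and 14 of the 20 were higher in G than in NP while 19 were lower than in L. The 10 fibroblast markers summed to 261 and 360 CPM in NP, 1069 and 875 in G and 691 and 525 in L, of which 5 were higher in G than in NP. The part of these genes in the results by stage was not tested.

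Contractile genes lay between the 2 other stages. Of 22 contractile genes 21 were tested, of which 15 were higher in G than in NP and none lower, and 18 were lower in G than in L and none higher. The median log2 difference over the tested members was 0.69 against NP, beside 0.01 over all genes tested, and -1.45 against L, beside -0.03. *Acta2* stood at 5568 and 5371 CPM in NP, 14205 and 10456 in G and 26568 and 22784 in L, so the stages did not overlap. It was higher in G than in NP by 1.25 ± 0.14 on the log2 scale (adjusted p = 8.54e-05, edgeR) and lower than in L, with a difference of -1.13 ± 0.14 (adjusted p = 7.58e-05). *Oxtr* stood at 52.2 and 72.4 CPM in NP, 74.7 and 61.7 in G and 743 and 672 in L. The log2 difference was 0.23 ± 0.18 against NP (adjusted p = 0.328), which did not pass, and -3.50 ± 0.17 against L (adjusted p = 2.07e-07). The receptor was low in both G and NP and high in L.

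**Figure D5:**
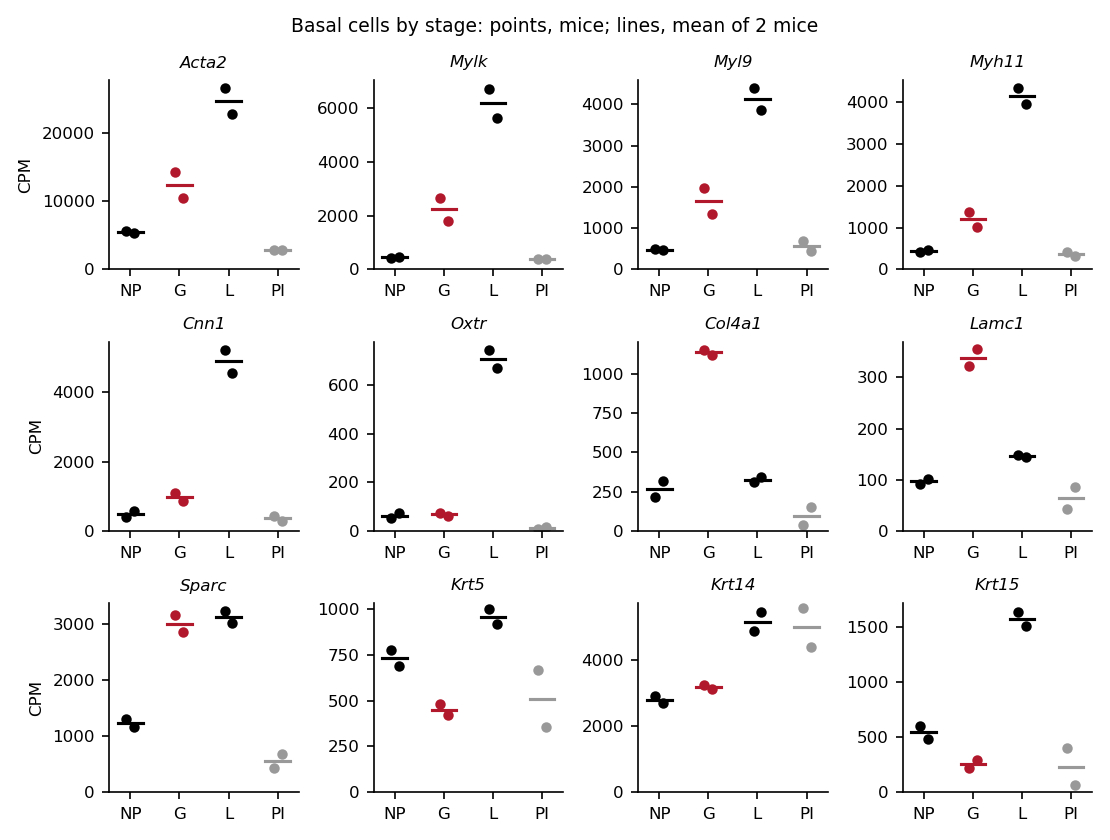
Levels of 12 genes in the summed basal cells (CPM, linear axes from 0) of NP, G, L and PI, 1 point per mouse and a line at the mean of 2 mice. *Acta2* of G lies between NP and L, *Oxtr* of G lies at the level of NP, and *Col4a1* of G lies above NP and L. The PI points rest on 28 and 59 cells.

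Nearly all basement membrane genes tested were higher in G than in NP, and against L they were mixed. Of 20, 19 were tested, 17 were higher in G than in NP and none lower, and 7 were higher, 4 lower and 8 not past the test against L. *Col4a1* stood at 216 and 318 CPM in NP, 1149 and 1121 in G and 313 and 341 in L. It was higher in G by 2.16 ± 0.17 (adjusted p = 1.14e-05) against NP and 1.67 ± 0.17 (adjusted p = 1.71e-05) against L. The other 6 higher than in L were *Col4a2*, *Lamb1*, *Lamc1*, *Col7a1*, *Nid1* and *Agrn*. Among those lower than in L were *Lama3*, a laminin chain, and *Col17a1*, a collagen of the hemidesmosome. *Col17a1* stood at 149 and 149 CPM in G and 240.1 and 266 in L, a log2 difference of -0.89 ± 0.11 (adjusted p = 7.82e-05).

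Basal keratins were mostly lower in G. Of 6, none was higher in G than in NP and 4 were lower, and against L 1 was higher and 4 lower. *Krt5* stood at 776 and 689 CPM in NP, 479 and 422 in G and 999 and 915 in L. Its log2 differences were -0.63 ± 0.12 (adjusted p = 0.00164) and -1.22 ± 0.12 (adjusted p = 1.36e-05). Of 16 basal transcription factors, 15 were tested, 8 were higher in G than in NP and 2 lower, and 5 were higher than in L and 4 lower. Over all genes the shares were 22.3% and 20.6% against NP and 26.2% and 26.6% against L. The shares of these factors against L lie near those of all genes. *Snai2*, *Egr2* and *Etv5* were higher in G than in both. *Mef2c* was higher than in NP by 3.14 ± 0.30 (adjusted p = 2.96e-05) and lower than in L, with a difference of -1.10 ± 0.21 (adjusted p = 0.00113), like the contractile genes.

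Several secreted signals differed by stage. *Igfbp5*, which binds insulin-like growth factors, stood at 777 and 752 CPM in NP, 2854 and 2874 in G and 275 and 207 in L. It was higher in G by 1.98 ± 0.14 (adjusted p = 4.6e-06) and 3.44 ± 0.14 (adjusted p = 1.07e-07). *Igfbp3* stood at 1101 and 1085 CPM in NP, 701 and 994 in G and 90.1 and 62.2 in L, and *Fst* at 1658 and 1798 in NP, 1907 and 1596 in G and 236 and 259 in L, both high in G and NP and low in L. In all, 10 of 18 tested FGF and IGF genes were higher in G than in NP and 3 lower, and 7 were higher than in L and 4 lower. *Vegfa*, which acts on vessels, stood at 99.4 and 146 CPM in NP, 276 and 381 in G and 92 and 106 in L. *Il17b* stood at 199 and 305 CPM in NP, 1271 and 1154 in G and 112 and 67.1 in L. *Cxcl14*, though higher in C13 than in C8, was lower in G than in both other stages. It stood at 3604 and 3883 CPM in NP, 1594 and 1996 in G and 9607 and 8460 in L. Its log2 differences were -0.99 ± 0.13 (adjusted p = 0.000174, edgeR) against NP and -2.46 ± 0.13 (adjusted p = 4.16e-07) against L. Of 26 tested secreted factors, 15 were higher in G than in NP and 6 lower, and 11 were higher than in L and 5 lower.

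Most EGF family genes tested were higher in G than in L. *Areg*, amphiregulin, stood at 248 and 376 CPM in NP, 22.6 and 37 in G and 0.804 and 0.541 in L, so that G lay between. Its log2 difference was -3.30 ± 0.25 against NP (adjusted p = 7.25e-06) and 5.29 ± 0.38 against L (adjusted p = 1.62e-06). The luminal genes summed to 7888 and 5155 CPM in the NP basal cells, and their part in the *Areg* difference was not tested. Of 12 tested EGF family genes, 9 were higher in G than in L and 1, *Nrg2*, was lower, while 4 were higher and 4 lower than in NP. In the Notch pathway, 11 of 15 genes were tested and 3 were higher and 4 lower than in NP, 2 higher and 5 lower than in L, from a small list (all genes 22.3% and 20.6% against NP, 26.2% and 26.6% against L). *Hes1* was lower in G than in both, with differences of -1.67 ± 0.17 (adjusted p = 5.41e-05) and -3.14 ± 0.16 (adjusted p = 2.87e-07). The ligand *Dll1* was also lower in G than in both, with differences of -0.95 ± 0.16 (adjusted p = 0.000832, edgeR) and -1.73 ± 0.15 (adjusted p = 6.85e-06). In the Wnt pathway, 7 of 25 tested were higher and 6 lower than in NP, 4 higher and 9 lower than in L, shares against NP that lie near those of all genes. The Wnt ligand gene *Wnt6* stood at 7.29 and 6.37 CPM in NP, 50.5 and 44.2 in G and 128 and 136 in L.

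Most genes of hormone receptors and related hormones were lower in G than in L. Of 17 tested, 7 were higher in G than in NP and 4 lower, and 2 were higher than in L and 13 lower. *Prlr* stood at 198 and 219.9 CPM in NP, 1.76 and 5.16 in G and 1.23 and 0.842 in L, and was lower in G than in NP, with a difference of -5.80 ± 0.27 (adjusted p = 3.13e-07). Of the 20 luminal genes, 13 were lower in G than in NP and 1 was higher. The list holds *Epcam*, on whose protein all cells were sorted. The luminal level in the NP sums was 7888 and 5155 CPM. Its part in the *Prlr* difference was not tested. Among thinned basal cells, *Krt18*, a luminal keratin, was in 70.4% and 61.1% of NP cells and 19.8% and 19.4% of C13 cells.

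The largest rises against NP were in part milk genes, whose level in C13 lay near that of the clusters that are not alveolar (*Csn2*, *Csn1s2a*, *Csn1s1*, *Glycam1*). Others were *Opcml*, a neural adhesion gene at 1.18 and 1.37 CPM in NP, 59.1 and 59.5 in G and 1.18 and 1.14 in L, and *Spock3*, a matrix proteoglycan gene, at 1.18 and 3.19 in NP, 61.4 and 49.6 in G and 28.5 and 43.1 in L. *Opcml* was higher in G than in NP by 5.64 ± 0.26 (adjusted p = 2.97e-07) and than in L by 5.53 ± 0.19 (adjusted p = 3.55e-08). *Wif1*, a Wnt inhibitor, stood at 48 and 57.8 CPM in NP, 168 and 159 in G and 9.08 and 4.09 in L, and *Col9a1*, a collagen chain, at 4.23 and 19.1 in NP, 118 and 99.9 in G and 1.47 and 1.5 in L. Both were higher in G than in L, by 4.48 ± 0.27 (adjusted p = 6e-07) and 6.05 ± 0.39 (adjusted p = 9.81e-07). Division genes rose in G: 22 of 24 were higher than in NP and 24 of 24 than in L, and of 19 tested DNA replication genes 8 were higher and 2 lower than in NP and 12 were higher than in L. *Mki67*, a marker of cycling cells, stood at 0.705 and 5.92 CPM in NP, 52.1 and 36.6 in G and 2.13 and 1.32 in L, higher in G than in L by 4.52 ± 0.39 (adjusted p = 6.53e-06). *Tnni2*, a troponin gene, was at 0 in both gestation mice and at 90.3 and 70.8 CPM in L, at least 113-fold lower in G against a floor of 3 counts per library. *Fam25c* was likewise at 0 in G and at 67.7 and 70.1 CPM in NP, at least 96.5-fold lower in G.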

How the data were processed

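The authors deposited raw UMI counts per gene and cell for 8 libraries, produced by Cell Ranger on the mm10 genome (STAR is named in the submitters' processing notes, versions not given in the sources used here), without normalisation between libraries, and a table of each cell's library, cluster and quality flag. The clusters are the authors' own. Their doublet cluster C20 passes the quality flag, was kept out of the basal sums and is shown only beside C13, and no doublet caller was run. Cells with a barcode present in more than 1 library (791) were left out. For 1096 cells the UMI total in the annotation differed from the total of the count file, and the count file was used. The combined matrix, which pools the 8 libraries, was not used.

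UMIs were summed per mouse and cluster and scaled to CPM. Clusters were compared by ratios within each mouse. Stages were compared by the quasi-likelihood test of edgeR 4.0.16 (R 4.3.3; filterByExpr, TMM, NP, G and L in 1 fit of 6 mice, adjusted p threshold 0.05), with DESeq2 1.42.0, other filters, thinning and left-out mice as alternatives. The test was tested on simulated data with 11402 genes, where it found 83% and 94% of genes changed 2-fold against NP and L. Of its calls, 5.67% and 6.73% were of unchanged genes. The simulation gave all genes the same spread and changed only genes with higher counts, so it does not show the power for low or more variable genes. Each library is 1 mouse. The p-values rest on the spread between the 2 mice of a stage, pooled over NP, G and L and moderated across genes. Shares of cells were computed after thinning each cell to 1500 UMIs, with exact (Clopper-Pearson) 95% intervals. Genes were named if they belonged to one of 26 lists (421 genes), were among the 10 highest or lowest of a comparison, or were among the 15 most variable. Some members of these lists are not reported here. The cells, lists and genes were chosen with earlier results of these data known.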

Additional observations from a re-analysis of the deposited data

How the results depend on the processing

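Counts of genes past 4-fold between clusters stayed within 1.5 times under TMM factors, removal of milk genes from the total and a mean over cells. With cells thinned to 1500 UMIs, 300 genes were higher in C13 than in C10. At 2-fold, 1315 genes were higher and 923 lower than in C8, and 1077 higher and 803 lower than in C10. With 1 mouse alone, 776 to 827 were higher and 370 to 420 lower than in C8, and 648 to 671 higher and 389 to 402 lower than in C10.

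Between stages, requiring a 2-fold change at a false discovery rate of 0.01 (glmTreat) left 294 genes higher and 160 lower in G than in NP, and 439 higher and 447 lower than in L. This setting was checked for 23 results of named genes by stage, of which 17 kept their outcome and 6 lost their call. The 6 were *Acta2* in both comparisons, *Krt5* in both, and *Col17a1* and *Mef2c* against L. Other genes named by stage were not checked in this way. Thinning cells to 1500 UMIs gave 1298 and 1062 against NP and 1836 and 1803 against L. With 283 cells per mouse, 1931 genes were lower than in L. Leaving out 1 mouse at a time gave 1454 to 2705 higher and 1224 to 2453 lower than in NP, lowest without NP mouse 1, and 1561 lower without G mouse 1. Against L the median log2 difference over all genes tested then lay between -0.042 (without G mouse 1) and -0.01 (without L mouse 1). A group then holding 1 mouse was assumed to vary like the others. The *Oxtr* difference from NP, which did not pass, was -0.04 without NP mouse 1 and 0.48 without NP mouse 2 and passed in neither. Same-numbered mice did not deviate together over the 11654 genes (correlations -0.01, 0.01 and 0.002). A value over all genes cannot exclude a pairing that moves only some of them. A replicate block gave 2590 and 2357 against NP and 3049 and 3105 against L.

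The mean share of cells with division genes was 12.4% in C13, 42.1% in C8, 38.6% in C10, 0.651% in NP and 0.221% in L. It was 20%, 55.3%, 54.3%, 4.24% and 2.56% at 1 UMI, and 9.45%, 34.3%, 31.6% and 0.453% for the first 4 at 3 UMIs. It was 15.2%, 52%, 54.2%, 1.08% and 0.473% at 3000 UMIs, and 23.7%, 64.7%, 69.3%, 3.06% and 0.802% without thinning, always with C13 between the luminal clusters and the other stages. A CArG box with 1 mismatch lay in 8 of the contractile genes. With 2 mice per stage and 28 and 59 cells after involution, small differences could not be detected. The cause of none of these changes was tested.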

Other observations

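Further gene lists of the basal cells were counted in the edgeR test (quasi-likelihood, Benjamini-Hochberg), in which 22.3% and 20.6% of all genes were higher and lower in G than in NP, and 26.2% and 26.6% than in L. Of 14 genes of smooth muscle ion channels and filament anchors, 11 were tested, 7 were higher in G than in NP and none lower, and all 11 were lower in G than in L. Of 15 integrin and hemidesmosome genes, 4 were higher and 5 lower in G than in NP, and 4 higher and 6 lower than in L. Of 12 tested adhesion genes, 2 were higher and 6 lower than in NP, and 5 higher and 3 lower than in L. Of 21 tested TGF-beta and BMP genes, 7 were higher and 3 lower than in NP, and 6 higher and 5 lower than in L. The shares of integrin genes against NP and of TGF-beta and BMP genes against L lie near those of all genes. *Gucy1a3*, a subunit of the nitric oxide receptor of smooth muscle, stood at 0.47 and 0 CPM in NP, 29.2 and 15.7 in G and 86.8 and 52.8 in L. Its 186 UMIs in G stood against 2 in NP, a ratio of 71.2 with a counting interval of 19.4 to 592.

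The post-involution sums held 28 and 59 basal cells and entered no test. *Acta2* stood there at 2824 and 2847 CPM, *Oxtr* at 8.74 and 16, *Col4a1* at 35 and 154, *Krt5* at 664 and 355 and *Prlr* at 0 and 620.5.

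*Lep*, the hormone leptin, stood at 1.01 and 0 CPM in the basal cells of G and 81.3 and 85 in L. *Nupr1*, a stress-induced gene, stood at 665 and 628 CPM in NP and 11.6 and 9.65 in G. *Gm21083*, *Speer4e* and *Gm10354*, among the 10 genes highest in C13 over C8, belong to groups of near-identical copies, and their counts are uncertain.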
